A study of Mus musculus with 4 samples.

Results

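The genes described here are 10 genes of bone mineral deposition: Alpl, Enpp1 and Ank, which set pyrophosphate, Phospho1 and Smpd3 of the matrix vesicle, Spp1 and Ibsp, which encode mineral-binding matrix proteins, Slc13a5, a citrate transporter gene, and Slc20a1 and Slc20a2, phosphate transporter genes. They were chosen by name and role, and are 10 of the 32286 features counted; each was found once in the feature list. Droplet single-cell RNA-seq (10x 3' v3.1) was made of cells from femurs and tibias and their marrow in 2 groups of 10-week-old C57BL/6J mice. The immobilized pool came from 6 mice whose hindlimbs had been immobilized for 2 weeks from 8 weeks of age, and the control pool from 4 mice of the same age labelled Control. All mice carried Tnfsf11tTA/+, LC1 and Rosa26LSL-tdTomato, and received doxycycline from the start of gestation until birth, which keeps fetal cells from being labelled. In this system a transactivator made from the Tnfsf11 locus, the gene of the osteoclast-inducing cytokine RANKL, leads to a lasting tdTomato mark, so the cells sorted (live, CD45.2-, Ter119-, tdTomato+) are cells that have used that locus and their descendants. The level of a gene is given for osteo-primed-like stroma, early osteoblast-like cells and mature osteoblast-like cells of each pool.

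Bone mineral is calcium phosphate laid down in a collagen matrix, and its growth depends on the balance of phosphate, which feeds it, and pyrophosphate, which blocks it. ENPP1 makes pyrophosphate outside the cell from nucleotides, ANK moves pyrophosphate or its precursors out of the cell, and tissue-nonspecific alkaline phosphatase (ALPL) splits pyrophosphate to phosphate. PHOSPHO1 frees phosphate from phospholipid head groups inside matrix vesicles, and the neutral sphingomyelinase SMPD3 is needed for normal mineralization in mice. Osteopontin (SPP1) and bone sialoprotein (IBSP) are acidic proteins that bind mineral and cells, and SLC13A5 imports citrate, a component of bone mineral.

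The 2 lanes of each pool were the same cells, with 1747 barcodes shared by the immobilized lanes and 1617 by the control lanes, so each pool is 1 sample and no test between groups was possible. Lanes held 9960011 and 10084134 UMIs (unique molecule counts) in the immobilized pool, and 10732720 and 10860328 UMIs in the control pool; only 3 barcodes occurred in both pools. Kept cells numbered 1394 in the immobilized and 1411 in the control pool, at median depths of 5706.5 and 5576.5 UMIs. The cell classes were named from marker genes that include none of the 10 genes, and clustering also left them out. Osteo-primed-like stroma (clusters 2 and 5, with 8 and 7 of 10 markers, among them Wif1, Limch1, Tnc and Mmp13) held 351 immobilized and 206 control cells. Early osteoblast-like cells (cluster 8, with 7 of 9 markers, among them Panx3, Sp7 and Notum) held 179 immobilized and 66 control cells. Mature osteoblast-like cells (clusters 9, 10 and 11, each with 9 of 9 markers, among them Bglap, Col1a1 and Ifitm5) held 296 immobilized and 410 control cells. Col2a1, a cartilage collagen gene, was among the leading genes of cluster 10, and the stress-induced Atf3 among those of cluster 11. Xist and Y-linked genes showed that both pools mixed the sexes: of mature osteoblast-like cells with a called sex, 76.7% were female in the immobilized and 95.7% in the control pool. Cells of different sex are from different animals, so values within each sex are given where they matter.

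Spp1, Ibsp and Slc13a5 are the genes on which the results below turn, and their promoters are shown first (RefSeq, GRCm38.p6, 250 bases before to 50 bases after a start site; Spp1 and Slc13a5 have 2 entries each and the upstream one is shown). Spp1 is at chr5:104434861-104435160, plus strand, Ibsp at chr5:104299037-104299336, plus strand, and Slc13a5 at chr11:72267112-72267411, minus strand. Capitals mark exact matches to searched motifs on either strand.
Spp1: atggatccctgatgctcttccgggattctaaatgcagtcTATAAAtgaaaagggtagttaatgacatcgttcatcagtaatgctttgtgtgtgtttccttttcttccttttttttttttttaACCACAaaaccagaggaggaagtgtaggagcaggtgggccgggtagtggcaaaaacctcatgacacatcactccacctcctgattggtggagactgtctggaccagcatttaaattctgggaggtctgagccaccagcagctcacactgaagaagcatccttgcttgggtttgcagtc
Ibsp: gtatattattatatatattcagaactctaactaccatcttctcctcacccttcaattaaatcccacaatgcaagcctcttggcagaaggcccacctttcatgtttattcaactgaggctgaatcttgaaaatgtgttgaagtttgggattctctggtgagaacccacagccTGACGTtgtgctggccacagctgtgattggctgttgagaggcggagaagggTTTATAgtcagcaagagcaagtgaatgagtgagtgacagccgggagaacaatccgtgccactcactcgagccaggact
Slc13a5: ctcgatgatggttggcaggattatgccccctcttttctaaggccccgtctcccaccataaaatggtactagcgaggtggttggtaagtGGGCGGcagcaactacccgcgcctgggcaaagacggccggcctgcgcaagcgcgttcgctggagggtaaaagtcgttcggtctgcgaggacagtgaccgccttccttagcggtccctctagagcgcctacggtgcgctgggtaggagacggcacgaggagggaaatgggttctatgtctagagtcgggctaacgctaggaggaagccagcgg
In Spp1 the capitals are TATAAA, first base at -211, and a RUNX motif (TGTGGT, here on the minus strand) at -128. In Ibsp they are TGACGT, part of a cAMP response element, at -79, and TATAAA on the minus strand at -28, an inverted TATA box. In Slc13a5 they are 1 GC box (GGGCGG) at -162. TGTGGT is found in 16.8%, TATAAA in 13.6%, TGACGT in 7.51% and GGGCGG in 35.7% of the 32851 mouse promoters of the same length, counting both strands. TGANTCA (AP-1) is in 7.81% and TAATTA (homeobox) in 5.29% of them, and neither is in these 3 windows. The other Spp1 entry, not shown, holds TAATTA at -122, and the other Slc13a5 entry holds 3 GC boxes. Of the 10 genes, 8 had an entry in the promoter table, with 12 promoters in all, and of these 3 held TGTGGT. Such matches describe the letters only.

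The 10 genes were spread unevenly over the 3 classes (plot of levels by class). In both pools Enpp1, Ank, Spp1 and Slc20a2 were highest in osteo-primed-like stroma, Ibsp in early osteoblast-like cells and Slc13a5 in mature osteoblast-like cells. Alpl was higher in osteo-primed-like and early osteoblast-like cells than in mature ones, with early over osteo-primed-like at 0.946-fold (0.883 to 1.01) in the immobilized and 1.32-fold (1.19 to 1.45) in the control pool, and Smpd3 was high in both osteoblast-like classes. Levels are in CPM, UMIs of the gene per 1000000 UMIs of the class, computed for each lane; UMI numbers are means of the 2 lanes and need not be whole. Intervals, here and below, are 95% and describe counting error alone; cells and animals vary beyond it. Because the classes come from clustering the same cells, differences between classes are a description.

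**Figure D1:**
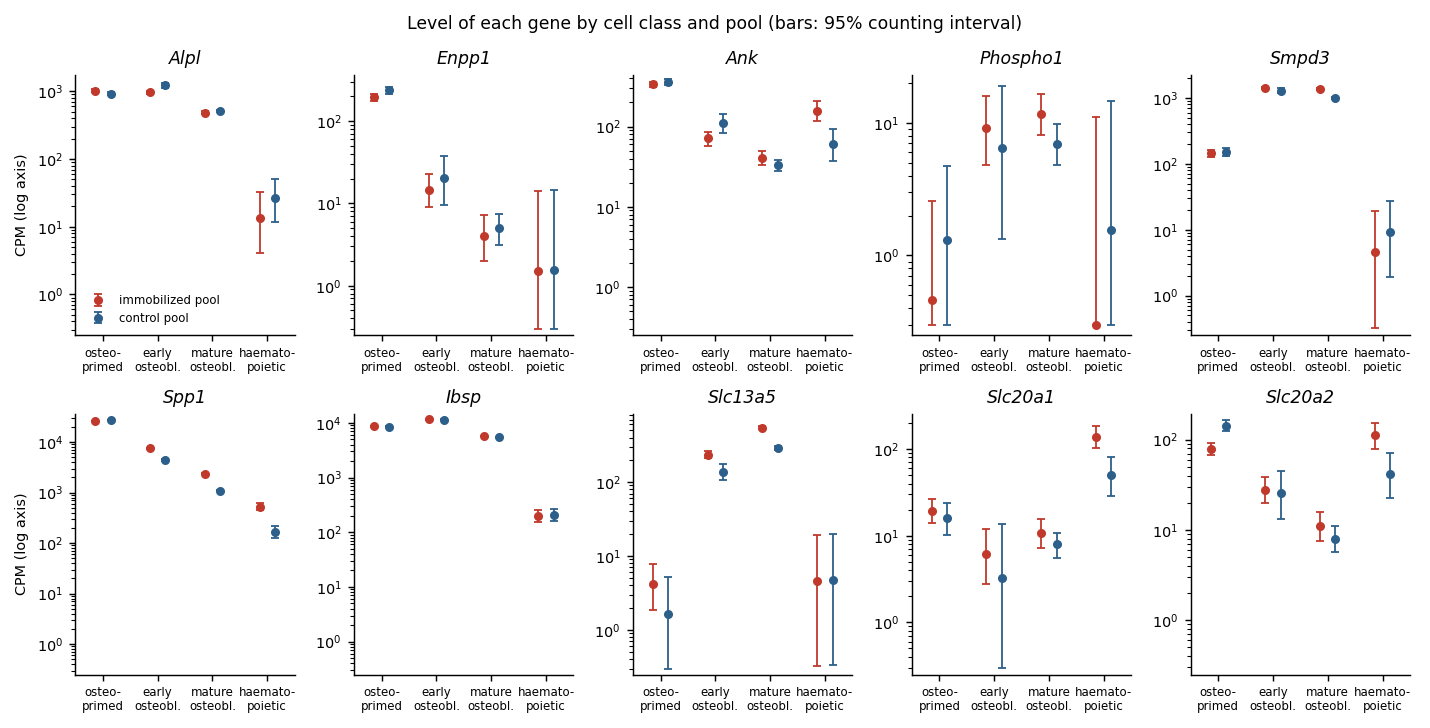
Level of each gene in the 3 skeletal classes and in haematopoietic-like cells, shown as a guide to free RNA. For Slc20a1, Slc20a2 and Ank the haematopoietic-like level lies above that of some skeletal classes in each pool, and whether it is free RNA was not tested. Each panel has CPM on a log axis, with the immobilized pool in red left of the control pool in blue. Bars are 95% counting intervals (an end below the axis minimum is drawn at the minimum). Spp1 and Slc13a5 are higher in red in both osteoblast-like classes and Slc20a2 is lower in red in osteo-primed-like stroma, while Ibsp overlaps or nearly overlaps in all 3 skeletal classes.

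Between the pools, Slc13a5 and Spp1 were at least 1.5-fold higher in the immobilized pool in mature and in early osteoblast-like cells, and Ibsp was nearly level in all 3 classes. In mature osteoblast-like cells 6 of the 10 genes averaged 50 or more UMIs per lane in either pool; 2 of these 6 were at least 1.5-fold higher (background over all 7397 genes at this count: 10.3%) and 0 were 1.5-fold lower (background 5.83%). In early osteoblast-like cells 2 of 6 were higher (background over 4395 genes: 5.1%) and 1, Ank, was lower (background 2.55%). In osteo-primed-like stroma 0 of 7 were higher (background over 6647 genes: 4.39%) and 1, Slc20a2, was lower (background 2.93%). In either direction the background was 16.2%, 7.65% and 7.33% in mature, early and osteo-primed-like cells. The median log2 ratio of the genes over the minimum, immobilized over control, was 0.37 in mature osteoblast-like cells, 0.08 in early osteoblast-like cells and -0.07 in osteo-primed-like stroma, against 0.12, 0.03 and 0.05 over all genes at this count. By total counts, genes with this count in each pool had a median shift of 0.17 in mature osteoblast-like cells; relative to it the median of the 6 genes was 0.20 and the count at least 1.5-fold higher stayed at 2.

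**Figure D2:**
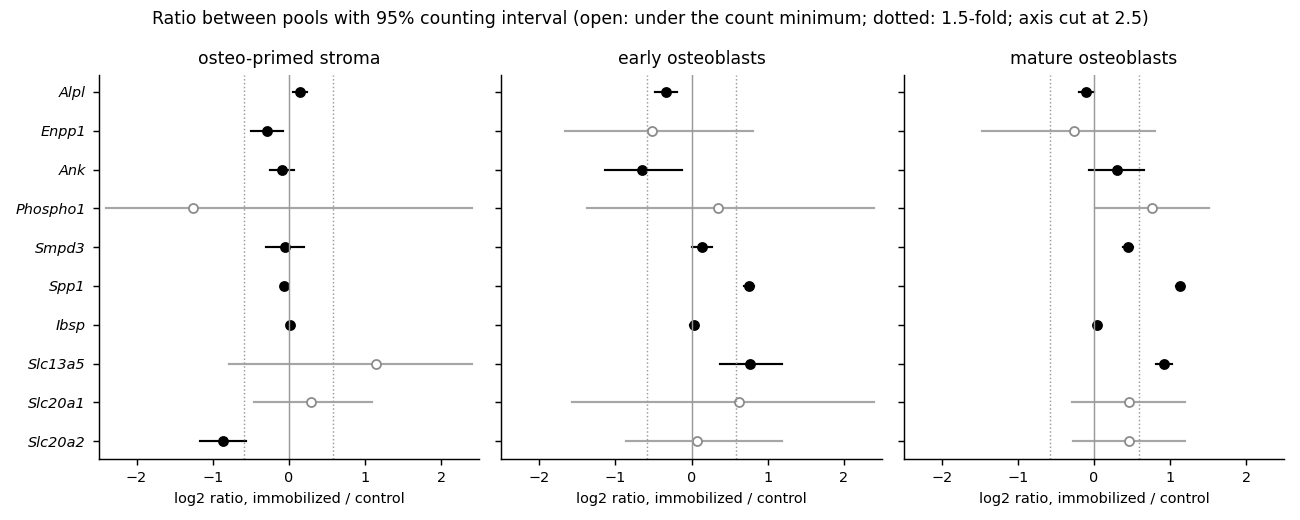
Log2 ratio of each gene, immobilized over control, in the 3 classes, with 95% counting intervals; filled points average 50 or more UMIs per lane in either pool, open points do not, and dotted lines mark 1.5-fold. Spp1 at 1.13 and Slc13a5 at 0.92 stand to the right of the dotted line in mature osteoblast-like cells, and Slc20a2 at -0.87 to the left of it in osteo-primed-like stroma.

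Slc13a5 encodes the sodium-coupled citrate transporter of the plasma membrane (chromosome 11, 72241989 to 72267222, minus strand, protein coding). In mature osteoblast-like cells its level was 543 and 546 CPM in the immobilized lanes, against 281 and 294 CPM in the control lanes. On 1480.5 and 1364 UMIs this is a log2 ratio of 0.92 (0.81 to 1.03). A Slc13a5 UMI was found in 87.7% of immobilized cells (83.4 to 91.2) and 79.3% of control cells (75.02 to 83.1), and in 57.1% and 40.6% after each cell was thinned to 2000 UMIs, which left out 6 and 5 cells. The shift ran through the whole distribution of cells: the lower quartile, median and upper quartile per cell were 218, 467 and 765 CPM in immobilized cells, against 82.8, 236 and 423 CPM in control cells. It was present in each of the 3 clusters, at 645 CPM in immobilized and 358 CPM in control cells of cluster 9, 469 and 279 CPM in those of cluster 10 and 413 and 220.2 CPM in those of cluster 11. Within sexes the log2 ratio was 0.98 in female cells (569 and 289 CPM) and 0.75 in male cells (484 and 285 CPM, on 64 immobilized and 17 control cells). Under all 21 alternative settings tried the ratio stayed past 1.5-fold, at log2 ratios between 0.69 and 0.98. The 21 include changes of the count minimum alone, which cannot move a ratio, and single lanes of the same cells.

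Early osteoblast-like cells had less Slc13a5 than mature ones, at 228 and 239 CPM in the immobilized lanes and 134 and 139 CPM in the control lanes. The log2 ratio between pools was 0.76 (0.38 to 1.19), on 318 and 63.5 UMIs. Mature cells stood 2.33-fold above early cells in the immobilized pool (2.07 to 2.64) and 2.09-fold in the control pool (1.64 to 2.76). A UMI was found in 43.3% of immobilized and 27.3% of control early cells. The log2 ratio was 0.45 in female cells alone and 0.50 with the stricter cell filter, both under 1.5-fold, and male control cells held 1 UMI in 16 cells. Osteo-primed-like stroma had 9 and 2.5 Slc13a5 UMIs (4.14 and 1.65 CPM). Haematopoietic-like cells had 4.55 and 4.67 CPM, on 1.5 UMIs in each pool. Osteo-primed-like over haematopoietic-like was 0.724-fold in the immobilized (0.162 to 14.4) and 0.318-fold in the control pool (0.0297 to 7.23). Slc13a5 in osteo-primed-like stroma could thus not be told apart from this background. Mature osteoblast-like cells held 80.7% of all Slc13a5 UMIs of the kept cells in the immobilized and 93.7% in the control pool.

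Spp1, on chromosome 5 (104435118 to 104441050, plus strand, protein coding), had its highest level of the 3 classes in osteo-primed-like stroma and the largest ratio between pools in mature osteoblast-like cells. In osteo-primed-like stroma it was at 26317 and 26208 CPM in the immobilized lanes, against 27546 and 27474 CPM in the control lanes, a log2 ratio of -0.07 (-0.09 to -0.05). Without the 5% of cells with the most Spp1 UMIs, which held 29.5% of the immobilized and 40.7% of the control UMIs, the sign was the other, at 20412 and 18806 CPM (0.12). Early osteoblast-like lanes had 7456 and 7535 CPM in the immobilized pool, against 4484 and 4418 CPM in the control pool (0.75, 0.68 to 0.82). Mature osteoblast-like lanes had 2396 and 2389.9 CPM in the immobilized pool, against 1087 and 1093 CPM in the control pool (1.13, 1.08 to 1.19). Spp1 was thus lower in early and lower still in mature osteoblast-like cells than in osteo-primed-like stroma in each pool, and the immobilized pool stood above the control pool in the 2 osteoblast-like classes. Osteo-primed-like stroma held 65.6% of all Spp1 UMIs of the immobilized pool and 70.1% of those of the control pool.

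Single cells carried unequal amounts of Spp1. Of the mature osteoblast-like cells, 1 control cell of cluster 9 held 1066.5 of the 5162.5 control UMIs. Leaving out the 5% of cells with the most Spp1 UMIs in each pool, a choice made after seeing the data, gave 1643 CPM in the immobilized and 478 CPM in the control pool (1.78). The median per cell was 893 CPM in immobilized and 188 CPM in control mature osteoblast-like cells. A Spp1 UMI was found in 90.5% of immobilized cells (86.6 to 93.6) and 71.5% of control cells (66.8 to 75.8), or 73.3% and 42.3% after thinning. By cluster the immobilized and control levels were 2088 and 1691 CPM in cluster 9, 2900.0 and 822 CPM in cluster 10 and 2583 and 653 CPM in cluster 11. Some Spp1 was also found outside the skeletal classes. Haematopoietic-like cells had 529 CPM in the immobilized and 168 CPM in the control pool. A UMI was in 54.5% of 110 and 41.3% of 69 of these cells, at median depths of 2207 and 2854.5 UMIs. Whether this Spp1 is free RNA or made by these cells was not tested. With the haematopoietic-like level subtracted in each pool the log2 ratio in mature osteoblast-like cells was 1.02, and in early osteoblast-like cells 0.70.

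The Spp1 ratio was not alike in the sexes. In mature osteoblast-like cells, female cells had 2217 CPM in the immobilized and 951 CPM in the control pool (1.22, 1.16 to 1.28), and male cells 3111 and 3242 CPM (-0.06, -0.20 to 0.08; 64 and 17 cells). In early osteoblast-like cells, female cells had 7103 and 2205 CPM (1.69, 1.58 to 1.80; 131 and 43 cells) and male cells 7822 and 9373 CPM (-0.26, -0.37 to -0.16; 38 and 16 cells). In osteo-primed-like stroma the log2 ratio was -0.26 in female and 0.31 in male cells, but the median per cell was higher in the immobilized pool in both sexes, at 12587 and 7926 CPM in female and 11272 and 8944 CPM in male cells. Male cells had more Spp1 than female cells in each pool and class of osteoblast-like cells. With female and male cells given the same weight in both pools, the log2 ratio was 0.34 in mature and 0.37 in early osteoblast-like cells, both under 1.5-fold. In early cells the ratio also depended on which cells were kept, at 0.16 with the looser cell filter, 0.26 with Scrublet calls kept and 1.01 with the stricter cell filter. The pooled Spp1 ratio was thus carried by female cells. Of early osteoblast-like cells with a called sex, 77.5% were female in the immobilized and 72.9% in the control pool. How much the sex mix adds to the pooled ratios was not tested beyond these values. Within female cells, the part of the animals and that of immobilization cannot be told apart.

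**Figure D3:**
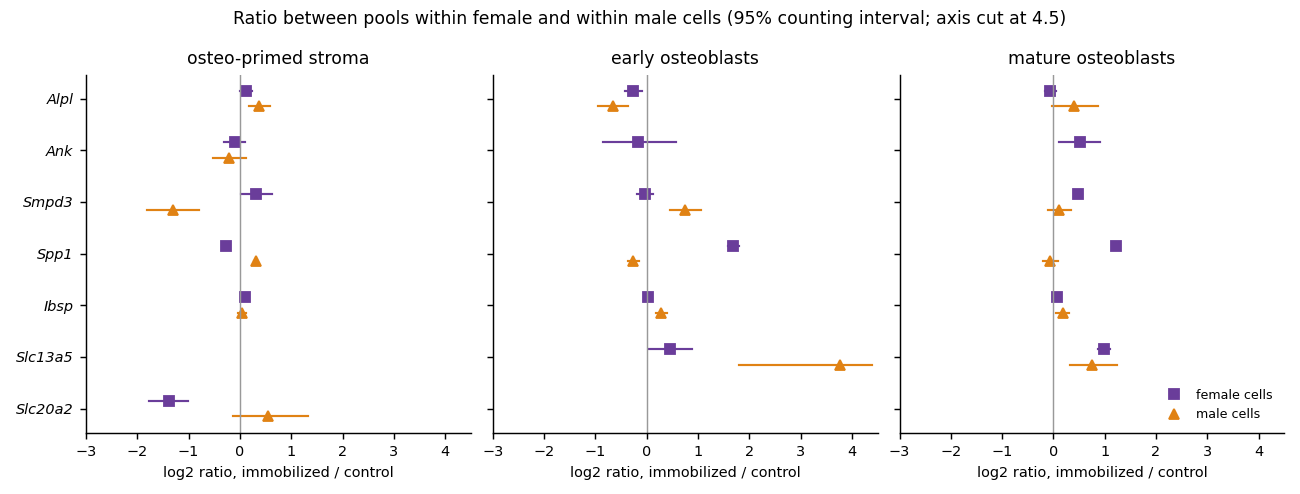
Log2 ratio between pools, immobilized over control, within female (purple squares) and male (orange triangles) cells for 7 genes in the 3 classes, with 95% counting intervals; genes under the count minimum in a sex and class are left out. The sexes lie on opposite sides of 0 for Spp1 in all 3 classes, although near 0 for male cells of the mature class (-0.06), while the osteo-primed-like medians per cell were higher in the immobilized pool in both sexes, and on the same side for Slc13a5 where both are shown.

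Ibsp, which lies on the same strand of chromosome 5 (104299171 to 104311469), had nearly the same level in both pools. Its level was 8730 and 8674 CPM in the immobilized lanes, against 8651 and 8517 CPM in the control lanes, in osteo-primed-like stroma. Early osteoblast-like cells had 11647 and 11546 CPM in the immobilized lanes, against 11418 and 11314 CPM in the control lanes. Mature osteoblast-like cells had 5764 and 5688 CPM in the immobilized lanes, against 5515 and 5599 CPM in the control lanes. The log2 ratios were 0.02 (-0.01 to 0.05), 0.03 (-0.02 to 0.07) and 0.04 (0.01 to 0.07) in osteo-primed-like, early and mature cells. Ibsp UMIs were in 93.9% to 100% of the cells in these 3 classes of each pool, and the background in haematopoietic-like cells was 197 and 205 CPM. The values moved with the choice of cells, up to 0.64 in early osteoblast-like cells when the 10 genes were kept for clustering and 0.43 in mature ones with the stricter cell filter. Lepr+ CAR-like stroma, the Cxcl12-rich reticular cells of the marrow, also had Ibsp well over that background, at 4233 CPM in the immobilized and 6530 CPM in the control pool.

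Spp1 and Ibsp belong to a row of mineralized-tissue genes on chromosome 5, in which Dspp, Dmp1, Ibsp, Mepe and Spp1 follow each other within 270.3 kb (104170712 to 104441050). Their ratios between pools differed. Dmp1, which encodes a matrix protein of osteocytes, had 226 CPM in the immobilized and 359 CPM in the control pool in osteo-primed-like stroma (-0.66, -0.84 to -0.48). It had 105 and 158 CPM in early osteoblast-like cells (-0.60, -1.01 to -0.16) and 187 and 120.2 CPM in mature ones (0.64, 0.46 to 0.81). Mepe, another osteocyte matrix gene, had at most 35.5 UMIs in any of these classes and pools. Dspp, a dentin gene, had 0 UMIs in these classes.

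Alpl (chromosome 4, 137741733 to 137796384, minus strand) showed pooled differences under 1.5-fold that were not of the same sign in all classes. In osteo-primed-like stroma it stood at 1031 and 1019.7 CPM in the immobilized lanes, against 926 and 929 CPM in the control lanes (0.14, 0.05 to 0.24). Early osteoblast-like cells stood at 973 and 967 CPM in the immobilized lanes, against 1209.7 and 1231 CPM in the control lanes (-0.33, -0.47 to -0.19). Mature osteoblast-like cells stood at 484 and 479 CPM in the immobilized lanes, against 506 and 529 CPM in the control lanes (-0.10, -0.20 to -0.01). In early cells the log2 ratio lay between -0.66, in male cells alone and past 1.5-fold, and 0.10, with the stricter cell filter. Mature cells had 0.496 times the Alpl level of early cells in the immobilized pool and 0.424 times in the control pool. Haematopoietic-like cells had 13.6 and 26.5 CPM.

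Enpp1 and Ank, whose products raise pyrophosphate outside the cell, were mainly osteo-primed genes in this set. Enpp1 (chromosome 10, 24637914 to 24712159, minus strand) had 203 and 186 CPM in the immobilized lanes, against 233 and 241 CPM in the control lanes, in osteo-primed-like stroma (-0.29, -0.50 to -0.08). It was low in the osteoblast-like classes, on at most 23.5 UMIs. Early cells had 14.7 CPM in the immobilized and 20.4 CPM in the control pool, and mature cells 4.05 and 4.96 CPM. Lepr+ CAR-like stroma also had Enpp1, at 109 CPM in the immobilized and 90.3 CPM in the control pool. It held 26.6% and 32.7% of all Enpp1 UMIs of these pools, against 61.6% and 53.2% in osteo-primed-like stroma. Ank (chromosome 15, 27466677 to 27594909, plus strand) had 341 and 335 CPM in the immobilized lanes, against 355 and 364 CPM in the control lanes, in osteo-primed-like stroma (-0.09, -0.25 to 0.07). Early osteoblast-like cells had 67.9 and 74.4 CPM in the immobilized lanes, against 106 and 116 CPM in the control lanes (-0.64, -1.14 to -0.12; 97 and 51.5 UMIs). That last ratio reached 1.5-fold in 9 of the 17 alternatives tried, and was -0.53 without the 5% of cells with the most Ank UMIs and 0.22 with the stricter cell filter. Among the 17 are changes of the count minimum alone, which cannot move a ratio, and single lanes of the same cells. Haematopoietic-like cells had 158 CPM of Ank in the immobilized and 60.6 CPM in the control pool, more than mature osteoblast-like cells (40.7 and 33.0 CPM) and, in the immobilized pool, more than early ones.

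Within osteo-primed-like stroma these genes marked 1 of the 2 clusters. Cluster 5 had 589 CPM of Ank in the immobilized and 612 CPM in the control pool, and cluster 2 had 116 and 113 CPM. Enpp1 was at 309 and 379.6 CPM in cluster 5 and at 93.0 and 98.3 CPM in cluster 2. Spp1 was at 41906 and 46679 CPM in cluster 5 and 12421 and 8788 CPM in cluster 2, and Ibsp at 12776 and 12739 CPM and 5098 and 4526 CPM. Alpl ran the other way, at 774 and 544 CPM in cluster 5 and 1247 and 1302 CPM in cluster 2. Cluster 5, which had Spp1 among its leading genes although Spp1 was not used to form it, thus combined high Spp1, Ibsp, Enpp1 and Ank with lower Alpl in both pools.

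**Figure D4:**
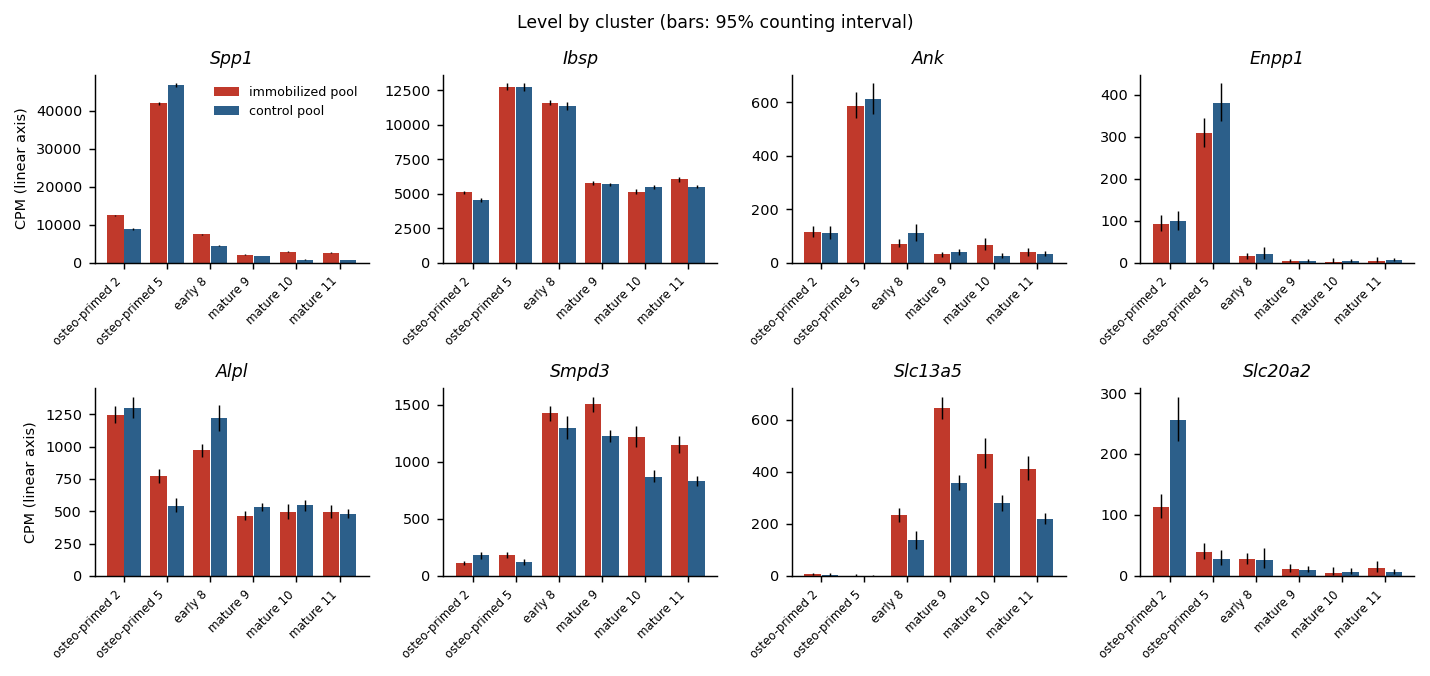
Level of 8 genes in each cluster of the 3 classes (CPM on a linear axis; the immobilized pool in red left of the control pool in blue; bars 95% counting intervals). Spp1, Ank and Enpp1 are tallest in osteo-primed cluster 5, Slc20a2 in osteo-primed cluster 2, and Slc13a5 is higher in the immobilized pool in clusters 8, 9, 10 and 11.

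Smpd3 (chromosome 8, 106252548 to 106337988, minus strand) was an osteoblast gene here. Mature osteoblast-like cells had 1355 and 1341 CPM in the immobilized lanes, against 1008 and 973 CPM in the control lanes (0.45, 0.38 to 0.51). Early osteoblast-like cells had 1432 and 1415 CPM in the immobilized lanes, against 1300.4 and 1295 CPM in the control lanes (0.13, 0.00 to 0.27). Osteo-primed-like stroma had 142 and 147 CPM in the immobilized lanes, against 149 and 152 CPM in the control lanes (-0.06, -0.31 to 0.20). None of the 3 pooled ratios reached 1.5-fold, and the mature ratio was 0.27 relative to the shift of all genes. In early osteoblast-like cells the log2 ratio was -0.04 in female cells (-0.19 to 0.12) and 0.75 in male cells (0.46 to 1.07). The male value, past 1.5-fold, rests on 495.5 UMIs in the immobilized and 111.5 in the control pool. The osteo-primed value joined opposite ratios of the sexes, 0.32 in female cells (180 and 144 CPM) and -1.31 in male cells (75.9 and 188 CPM), the male ratio resting on 63 and 74.5 UMIs. In that class 10 of the 206 control cells held 64.0% of the Smpd3 UMIs. Smpd3 may share reads with a neighbour, which was not tested. It overlaps Gm26786, a non-coding RNA gene on the same strand, and Prmt7 and the non-coding RNA gene Gm10629 on the opposite strand. The strand used in counting is unknown here, and Gm10629 was itself a leading gene of cluster 8. Phospho1 (chromosome 11, 95824499 to 95832140, plus strand) was under the count minimum in all classes: mature osteoblast-like cells had 32 UMIs in the immobilized and 33 in the control pool (11.8 and 6.97 CPM; log2 ratio 0.76, 0.01 to 1.504), and the other classes at most 12.5.

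Of the phosphate transporter genes, Slc20a2 (PiT-2; chromosome 8, 22476788 to 22569612, plus strand) had the lowest ratio of the set over the count minimum. In osteo-primed-like stroma it stood at 78.5 and 78.4 CPM in the immobilized lanes, against 154 and 132 CPM in the control lanes (-0.87, -1.16 to -0.57; 171 and 217 UMIs). A Slc20a2 UMI was found in 27.1% of immobilized cells (22.5 to 32.0) and 26.5% of control cells (20.6 to 33.0), a difference within these intervals. Few cells held much of it: 10 of the 206 control cells held 60.1% of the control UMIs, and 1 of them 33. Without the 5% of cells with the most Slc20a2 UMIs, the levels were 49.95 CPM in the immobilized and 61.0 CPM in the control pool (-0.29). In cluster 2 it stood at 113 CPM in the immobilized and 256 CPM in the control pool, and in cluster 5 at 39.6 and 28.0 CPM. The log2 ratio was -1.37 in female and 0.55 in male cells. Haematopoietic-like cells had 111 and 42.0 CPM. Osteo-primed-like stroma stood at 0.697-fold of that level in the immobilized pool (0.491 to 1.03, which includes 1) and at 3.29-fold in the control pool (1.97 to 6.42). Slc20a1 (PiT-1; chromosome 2, 129198764 to 129211616, plus strand) had at most 42.5 UMIs in any of the 3 skeletal classes of a pool, and 19.5 and 15.8 CPM in osteo-primed-like stroma, under the 139 and 49.8 CPM of haematopoietic-like cells.

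Osteocyte-like cells, 42 in the immobilized and 5 in the control pool, had the highest Spp1 and Ank levels of the kept skeletal classes. Spp1 stood at 56265 CPM in the immobilized and 114180.4 CPM in the control cells, Ank at 1833 and 1173 CPM and Enpp1 at 225 and 603 CPM. The Enpp1 values, on 22 and 9 UMIs, were also above the 194 and 237 CPM of osteo-primed-like stroma. Ibsp stood at 1479.9 and 1541 CPM, below its level in the 3 classes. Alpl and Smpd3 had at most 2 UMIs, and Phospho1 and Slc13a5 had 0 UMIs. With 5 control cells no ratio is drawn between the pools for this class.

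Across the 25 points made by stromal and skeletal clusters with at least 20 cells in a pool, the genes fell into partly opposed patterns of log2(CPM + 1). The points share cells' libraries and pools, and the values are descriptions. Pearson's r was 0.92 for Phospho1 with Smpd3, 0.83 for Ank with Spp1 and 0.82 for Alpl with Smpd3, and -0.93 for Enpp1 with Slc13a5. Phospho1 had only 49.5 UMIs in the immobilized and 41.5 in the control pool over all kept cells, and 0 in Lepr+ CAR-like stroma. Many of its points are thus at or near 0, which limits every r given for it. Spp1 and Ibsp, although neighbours on the chromosome, had an r of 0.25. Among the 8938 other genes with at least 200 UMIs, those most like Slc13a5 were Tram1 (0.96) and P3h4 (0.94), those most like Smpd3 were Col22a1 (0.98) and Mmp16 (0.97), a marker used to name the early osteoblast-like class, and those most like Phospho1 were Ckap4 (0.97) and Rrbp1 (0.95). Spp1 was most like Sema5a (0.89) and Klhl2 (0.84), Ibsp most like Card6 (0.89) and Lmo7 (0.84), and Ank most like Ubash3b (0.91) and Phc2 (0.91). Enpp1 was most like Sept11 (0.93) and Extl3 (0.92), Slc20a2 most like Zmym4 (0.90) and Irs1 (0.89), and Slc20a1 had no gene over 0.72.

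Other genes of mineral handling, 82 in 5 lists, mostly stayed within 1.5-fold. Among mature osteoblast-like cells 48 of them were over the count minimum, of which 5 were at least 1.5-fold higher and 0 lower in the immobilized pool, with a median log2 ratio of 0.18. That is 10.4% of them, against 10.3% of all genes, and the median is close to the shift of 0.17. Relative to that shift 1 of the 48, Slc44a1, was higher and 2 were lower. Besides Dmp1 the 5 were Slc44a1, a choline transporter gene (287 CPM in the immobilized and 151 CPM in the control pool, 0.93), Aco1, of the citrate-using aconitases (0.75), Gpcpd1, a glycerophosphocholine phosphodiesterase gene (0.73), and Adk, adenosine kinase (0.64). Among early osteoblast-like cells 2 of 36 were higher (5.56%, against 5.1% of all genes) and 2 lower (5.56%, against 2.55%). Of these, Anxa1, an annexin gene, had a log2 ratio of 1.09, Slc8a1, a sodium-calcium exchanger gene, -0.97, Dmp1 -0.60 and Clcn3, a chloride exchanger gene, 0.61 with an interval (-0.28 to 1.72) that includes 0. In osteo-primed-like stroma 5 of 50 were higher (10.0%, against 4.39% of all genes) and 1, Dmp1, lower (2.0%, against 2.93%). The higher ones were Col10a1, a collagen gene of hypertrophic cartilage (125.5 and 1.5 UMIs), Enpp2, which encodes autotaxin (88.6 and 27.0 CPM, 1.70), Mgp, matrix Gla protein, an inhibitor of mineralization (184 and 70.2 CPM, 1.38), Car2, a carbonic anhydrase gene (0.68), and Clcn3 (0.59).

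Other signals also differed between the pools in these classes. Summed levels of 38 haematopoietic markers were 352 CPM in the immobilized and 171 CPM in the control pool in osteo-primed-like stroma, 263 and 199.9 CPM in early, and 239 and 111 CPM in mature osteoblast-like cells, with 9, 15 and 3 of the 38 at 0 in these classes. In mature osteoblast-like cells the 9 early osteoblast markers summed to 4511 CPM in the immobilized and 3176 CPM in the control pool, with 4 of 9 at least 1.5-fold higher, 0 lower and a median log2 ratio of 0.42. The 9 mature osteoblast markers there summed to 227405 and 256326 CPM, with 0 higher, 3 lower and a median log2 ratio of -0.25. Of 12 immediate early and AP-1 genes, which are known to be induced by tissue digestion, 10 had log2 ratios at or below 0 in mature osteoblast-like cells, with a median of -0.38, and without cluster 11 the Spp1 and Slc13a5 log2 ratios there were 0.80 and 0.87. For early osteoblast-like cells 11 of 11 measured were above 0, with a median of 0.63. The median mitochondrial share of counts was 6.66% in the immobilized and 5.27% in the control pool in mature, 5.59% and 5.35% in early osteoblast-like cells, and 4.37% and 3.77% in osteo-primed-like stroma. The part of these signals in the ratios was not tested beyond the values given.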

How the data were processed

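Droplet libraries (10x 3' v3.1) were made of reporter-marked cells of 1 immobilized pool (6 mice) and 1 control pool (4 mice), with 2 lanes per pool. The authors deposited UMI counts per gene and barcode, made with Cell Ranger 7.0.0 on mm10, per the submitters' processing notes; the annotation release and the strand setting are not given in the sources used here. The 2 lanes of a pool held the same barcodes, and their counts differed by less than sampling noise (mean chi-square per gene 0.588 in the immobilized and 0.537 in the control pool), so lanes were averaged and counted as 1 sample.

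Cells with under 500 genes, with 10% or more mitochondrial counts, or called doublets by Scrublet were left out: in the immobilized pool 126, 300 and 9 cells (0.515%), and in the control pool 90, 146 and 18 cells (1.11%). The rest were clustered with scanpy 1.11.5 (2000 variable genes without the 10 members, 30 principal components, 15 neighbours, Leiden resolution 1). A cluster was named where at least 3 markers, and 30% of a list, were over 2-fold higher and in at least 10% of its cells; the rule for scoring was chosen with the clusters in view. Names rebuilt in this way may differ from the study's own. CPM came from summed UMIs. Ratios have exact conditional binomial intervals, levels Poisson intervals and shares of cells Clopper-Pearson intervals, all at 95%. A pseudocount of 0.5 counts was used in ratios, and genes averaging 50 or more UMIs per lane in either pool were set against 1.5-fold. With 1 pool per group there was no replicate check and no test. The steps were tested on simulated counts; the intervals first missed a coverage limit set per small bin of genes, in 1 bin of osteo-primed-like stroma, and the limit was then set on coverage over all changed genes of a class.

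The 10 genes and the gene lists were chosen with earlier results of these data known. Named genes are the members, their 2 most alike genes (those of Alpl are not reported here), and up to 6 listed genes past 1.5-fold per class whose interval excludes 0; Clcn3 in early osteoblast-like cells, Mepe and Dspp were named after their values were seen. Gene positions are of GENCODE vM21 (GRCm38), which held 32158 of the identifiers. Alternatives included other scaling, count minimums, cell filters, clusterings, lanes and sexes; leaving out the cells highest in a gene, weighting the sexes equally and leaving out the Col2a1 cluster were added after seeing the data.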

Additional observations from a re-analysis of the deposited data

Results flagged for a closer look

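Several results were singled out because the ratio between pools had opposite signs in different classes or sexes; none of these differences was tested. The Alpl log2 ratio was 0.14 in osteo-primed-like stroma, -0.33 in early and -0.10 in mature osteoblast-like cells. The Spp1 log2 ratio was -0.067 in osteo-primed-like stroma, 0.75 in early and 1.13 in mature osteoblast-like cells. In osteo-primed-like stroma the Smpd3 log2 ratio was 0.32 in female and -1.31 in male cells. The Spp1 log2 ratio there was -0.26 in female and 0.31 in male cells, although the median per cell was higher in the immobilized pool in both sexes (12587 and 7926 CPM in female, 11272 and 8944 CPM in male cells). In early osteoblast-like cells the Spp1 log2 ratio was 1.69 in female and -0.26 in male cells. Female and male cells came from different animals, and animals of the same sex within a pool cannot be told apart.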

How the results depend on the processing

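No paired analysis was possible because the results come from no test and each pool is 1 sample; the lanes are repeat runs of the same cells. Of 361 recomputed log2 ratios for 19 gene and class pairs over the count minimum, 251 lay within the reported counting interval and 333 kept their sign. Settings that change only the count minimum leave a log2 ratio as it is, and those leaving out a lane use the same cells. Such entries among the 361 were thus fixed or nearly fixed in advance. Of the 28 with the other sign, 4 belong to ratios reported past 1.5-fold. One is Ank in early osteoblast-like cells (0.22, stricter cell filter). The rest are in male cells alone: Slc20a2 in osteo-primed-like stroma (0.55, -0.14 to 1.34), Spp1 in early (-0.26) and Spp1 in mature osteoblast-like cells (-0.060, -0.20 to 0.08). The intervals given for male Slc20a2 and mature Spp1 include 0, and the cause was not tested. The others belong to smaller ratios, such as Spp1 in osteo-primed-like stroma (0.31 in male cells) and Ank (-0.84) and Alpl (0.40) in male mature osteoblast-like cells. In early osteoblast-like cells the number at least 1.5-fold higher was 1, not 2, with the stricter filter, the looser filter, Scrublet calls kept, female cells alone, sexes weighted equally and the mean of per-cell CPM. The number lower there was 0, not 1, with members kept for clustering, members and other mineralization genes left out, the stricter and looser filters, Scrublet calls kept, female cells alone, sexes weighted equally and without the highest 5% of cells. In mature osteoblast-like cells the number higher was 1 in male cells alone and with sexes weighted equally. In osteo-primed-like stroma the number higher was 1 with no count minimum, and the number lower was 2 with no count minimum or haematopoietic-like levels subtracted, and 0 for the mean of per-cell CPM or without the highest 5% of cells. Leaving out a lane left these counts at 0 and 1 in osteo-primed-like, 2 and 1 in early and 2 and 0 in mature cells. At Leiden resolution 0.5 no early class was found. Subtracting haematopoietic-like levels took Slc20a2 and Ank to 0 in places, where the ratios (-8.79 and -7.12) are set by the pseudocount. There the haematopoietic-like level was above the skeletal one, and whether it is free RNA was not tested. Phospho1 and Slc20a1 were limited by depth.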
